A study of Mus musculus with 6 samples.

Results

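The genes described here are 43 enzymes, transporters and associated proteins that make ceramides and the other lipids of the epidermal permeability barrier. They were taken by name from a given list (sphingolipid, acylceramide and fatty acid genes, no proteases), whose symbols were matched to the gene identifiers of the deposited expression table. All 43 were among its 35275 genes, and 40 reached the mean of 1 FPKM (mapped fragments scaled to the length of the transcript and the depth of the library) needed for testing, of 11071 genes that did.

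RNA sequencing had been carried out on keratinocytes from the back-skin epidermis of mouse embryos of the CD1 IGS strain at embryonic stage E16.5, 3 libraries per genotype. In the K10-spastin group (genotype K10rtTA;TREspastin) a transactivator under the keratin 10 promoter, active in suprabasal cells, switched on spastin, a protein that severs microtubules, once doxycycline was given to the dams from E14.5. Doxycycline from E14.5 is given for the samples of both groups. The other group is labelled control, and the sources used here do not state which of the K10-rtTA, TRE-H2B-GFP and TRE-Spastin transgenes were present in it. Cells of both groups were sorted for the green nuclear reporter H2B-GFP, and no embryo number per library is stated, so a p-value here reflects variation among RNA samples, which may be technical.

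Epidermal ceramides are built from a sphingoid base, which serine palmitoyltransferase starts from serine and palmitoyl-CoA, and from a fatty acid that elongases have lengthened. Ceramide synthases join the pair, and in the upper epidermis very long acyl chains are hydroxylated at their far end and esterified with linoleate to give acylceramides. Glucosylceramides and sphingomyelins are loaded into lamellar granules, secreted at the granular layer and turned back into ceramides outside the cell, where lipoxygenase products allow some of them to be bound to the cornified envelope.

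Estimated depth was 16.0 to 22.5 M (mega) fragments per library, at which 3 fragments in a transcript of 1 kb equal 0.134 to 0.187 FPKM. Control libraries held 21.2 to 24.0 FPKM of Spast, while K10-spastin libraries 1, 2 and 3 held 1431.4, 639 and 213 FPKM. The suprabasal keratins were abundant in all libraries, Krt1 at 11405.9 to 28594.9 FPKM and Krt10 at 13074.6 to 32512.9 FPKM. Krt10 fell by 0.81 on the log2 scale in K10-spastin (adjusted p = 0.0438). It was the only one called of 7 suprabasal markers, of which 3 had positive and 4 negative changes. Of 8 basal keratinocyte markers, 2 with positive and 6 with negative changes, 2 were called, Krt15 and Dst, both lower (adjusted p of 0.0269 and 0.0256). Krt15 was 2094.7, 1237.4 and 1835.4 FPKM in controls 1, 2 and 3, against 70.0, 449 and 261 FPKM. Krt5, at 1071.6 to 3700.0 FPKM across all libraries, was not called (adjusted p = 0.202). Of 8 granular layer markers 3 rose (Ivl, Cdsn and Asprv1). Summed levels were 4159.1 to 7254.8 FPKM in controls against 2538.1 to 4781.5 in K10-spastin for the basal list, and 1772.6 to 6083.4 against 5124.5 to 18110.0 for the granular list. Dermal fibroblast markers summed to 6.44 to 42.3 FPKM in controls and 0.791 to 3.03 FPKM in K10-spastin, 4 stress keratins to 209 to 492 and 3037.2 to 22536.2 FPKM, and endothelial and immune markers to at most 1.84 FPKM in any library. The part of these differences in the values that follow was not tested, and in bulk libraries fewer cells of a type and less RNA per cell cannot be told apart.

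Changes of the lipid enzymes were mostly positive in K10-spastin epidermis. Of the 40 tested, 10 rose (Cers3, Degs1, Smpd3, Elovl6, Scd1, Scd2, Pnpla1, Abca12, Sdr9c7 and Lipn) and 1 fell (Alox12e) at an adjusted p under 0.05 in limma's test of log2(FPKM + 1). Over all tested genes 5.14% rose and 5.9% fell. The median log2 change was 0.60 over the 40 and -0.09 over all tested genes, with 33 positive and 7 negative values among the 40. In 24 genes every K10-spastin library lay above every control, against 15.6% of all tested genes, and in 3 genes (Kdsr, Cers5 and Alox12e) every one lay below, against 24.8%. Lipn and Degs2 passed the filter on low values only through K10-spastin, so they had to differ. Summed over all 43 genes, the level was 1704.0, 2333.4 and 1881.7 FPKM for control libraries 1, 2 and 3 and 3997.1, 2552.5 and 3182.6 FPKM in K10-spastin libraries 1, 2 and 3. Below, values are always in that library order, and a change is the K10-spastin minus control difference of mean log2(FPKM + 1) ± its standard error.

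**Figure D1:**
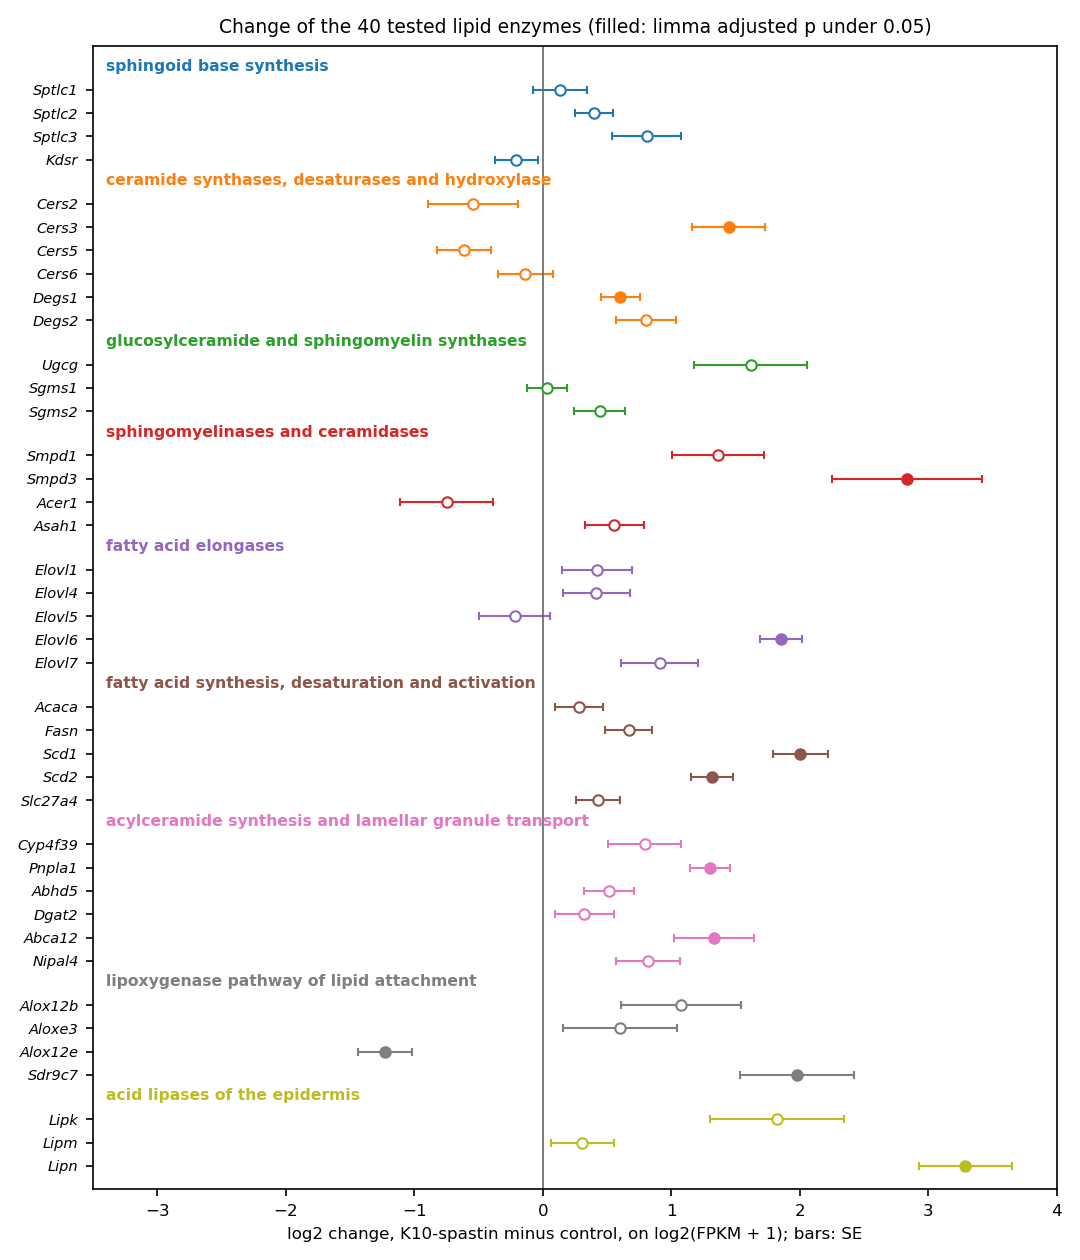
Log2 change (K10-spastin minus control, log2(FPKM + 1) scale, horizontal axis) of the 40 tested lipid enzymes, in order of their roles. Bars are standard errors of the fit. Filled points mark the 11 genes past the adjusted p threshold, of which only Alox12e lies to the left of 0.

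The 250 bases before the transcription start were available from RefSeq for 34 of the 43 genes, and matches to 6 motifs in them are shown because many of these genes moved in the same direction. Both strands were searched in the members and in 27025 genes, and motif matches may overlap. TGANTCA (AP-1) occurred before 1 of the 34 (Lipn) and 6.85% of all genes, AGGTCA (a core element of nuclear receptor sites) before 5 of the 34, or 14.7%, and 13.8%, and CCAAT (NF-Y) before 35.3% and 34.5%. CACGTG (E-box) occurred before 4 of the 34, or 11.8%, and 6.04% of all genes. The grainyhead-like motif AACCGGTT and the sterol regulatory motif TCACNCCAC, present before 0.126% and 1.03% of all genes, had no match in the 34 windows. The matches before called genes lie, in GRCm38.p6 coordinates, at chr7:66743370-66743399 (Cers3, plus strand), chr1:182282221-182282250 (Degs1, minus strand), chr3:129532181-129532210 (Elovl6, plus strand), chr17:28858177-28858206 (Pnpla1, plus strand), chr11:70322727-70322756 (Alox12e, minus strand) and chr19:34067199-34067228 (Lipn, plus strand). They are printed 5′ to 3′ on the gene's strand with the match in capitals, which for Elovl6 and Alox12e is the reverse complement of the motif.
Cers3: aagagcgaagccAGGTCAgtctgaggcaga
Degs1: gggagcctcaatCACGTGgtccagtcagct
Elovl6: tgggcttgagtaTGACCTcaaggccacttc
Pnpla1: ttttgcccagagCCAATcctaaggtaagaa
Alox12e: ttttccactaaaATTGGgtgggcgtgagac
Lipn: gcaaacatcagTGAGTCAgccaaaatgatt
The matches begin 122, 43, 193, 222, 214 and 148 bases before the start. These are matches of letters only, and binding was not measured.

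Sphingoid base synthesis showed no called change among its 4 genes. Sptlc3, the serine palmitoyltransferase subunit that widens the range of base lengths, stood at 35.1, 45.6 and 36.2 FPKM in controls, against 104, 49.5 and 62.4 FPKM. Every K10-spastin library was above the controls, most of all library 1, and the change of 0.81 ± 0.27 missed the threshold (adjusted p = 0.0917). Sptlc2, the catalytic subunit that pairs with Sptlc1, was 30.6, 26.9 and 28.5 FPKM against 44.3, 35.7 and 34.7 FPKM, again without overlap (0.40 ± 0.15, adjusted p = 0.116). The shared subunit Sptlc1 was 33.1, 45.2 and 32.2 FPKM against 51.3, 32.8 and 38.3 FPKM. Its groups overlapped and its change of 0.14 ± 0.21 (adjusted p = 0.701) was -0.04 without K10-spastin library 1. Within the 3 subunits, the share of Sptlc3 in their summed FPKM was 35.5 to 38.8% in controls and 41.9 to 52.1% in K10-spastin. Kdsr, the reductase of the following step, lay between 11.2 and 12.3 FPKM in controls and between 8.49 and 11 FPKM in K10-spastin (-0.21 ± 0.17, adjusted p = 0.436).

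Among the ceramide synthases Cers3 rose and no other was called. Cers3, the synthase that uses ultra-long acyl chains and is required for acylceramides, rose from 17.2, 27.0 and 22.2 FPKM to 92.8, 48.0 and 51.0 FPKM (1.45 ± 0.28, adjusted p = 0.0242). All K10-spastin libraries exceeded the highest control. Leaving out any single control ended the call, with adjusted p of 0.0756, 0.0634 and 0.0912 for controls 1, 2 and 3. Cers5, which prefers palmitoyl-CoA, was 17.1, 19.4 and 19.8 FPKM against 8.66, 13.5 and 14.2 FPKM. Every K10-spastin library was below the controls, although the change of -0.62 ± 0.21 was not called (adjusted p = 0.0944). As a share of the summed FPKM of the 5 ceramide synthases, Cers3 was 34.5 to 44.9% in controls and 60.6 to 83.7% in K10-spastin, and Cers5 32.3 to 34.3% and 7.81 to 17.8%. The shares of Cers6 (18.6 to 26.4% and 7.58 to 17.4%) and Cers2 (4.05 to 6.70% and 0.799 to 4.04%) did not overlap between the groups either. Cers6, with a chain preference like that of Cers5, lay between 8.41 and 13.8 FPKM over all libraries (-0.14 ± 0.21, adjusted p = 0.705), and its change was 0.06 without K10-spastin library 1. Cers2, a synthase of very long chains, lay between 0.886 and 4.02 FPKM (-0.54 ± 0.35, adjusted p = 0.327). Cers4 was under the filter, at 0.0889 to 0.60 FPKM.

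The double bond of the sphingoid base is introduced by Degs1, which rose from 108, 141 and 119 FPKM to 216, 173 and 172 FPKM (0.60 ± 0.15, adjusted p = 0.0485). Its groups did not overlap, but the call held in only 3 of the 16 alternatives compared, the fewest of the 11 genes. It was lost when any single library was left out (adjusted p of 0.132, 0.0879 and 0.167 without controls 1, 2 and 3, and 0.0606, 0.0772 and 0.0598 without K10-spastin libraries 1, 2 and 3). Other scalings also ended it (0.0708 with median-of-ratios factors and 0.0827 with quantile normalization). Degs2, which hydroxylates the base to give phytoceramides, was 1.28, 0.504 and 0.947 FPKM against 2.87, 2.11 and 1.96 FPKM (0.81 ± 0.23, adjusted p = 0.0647). The groups were separate here too, at low levels but above the 3-fragment value for this gene, at most 0.0725 FPKM. Its exons overlap those of Evl on the other strand over 10.8% of their length. Fa2h, the fatty acid 2-hydroxylase, was listed at 0 in all 6 libraries.

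**Figure D2:**
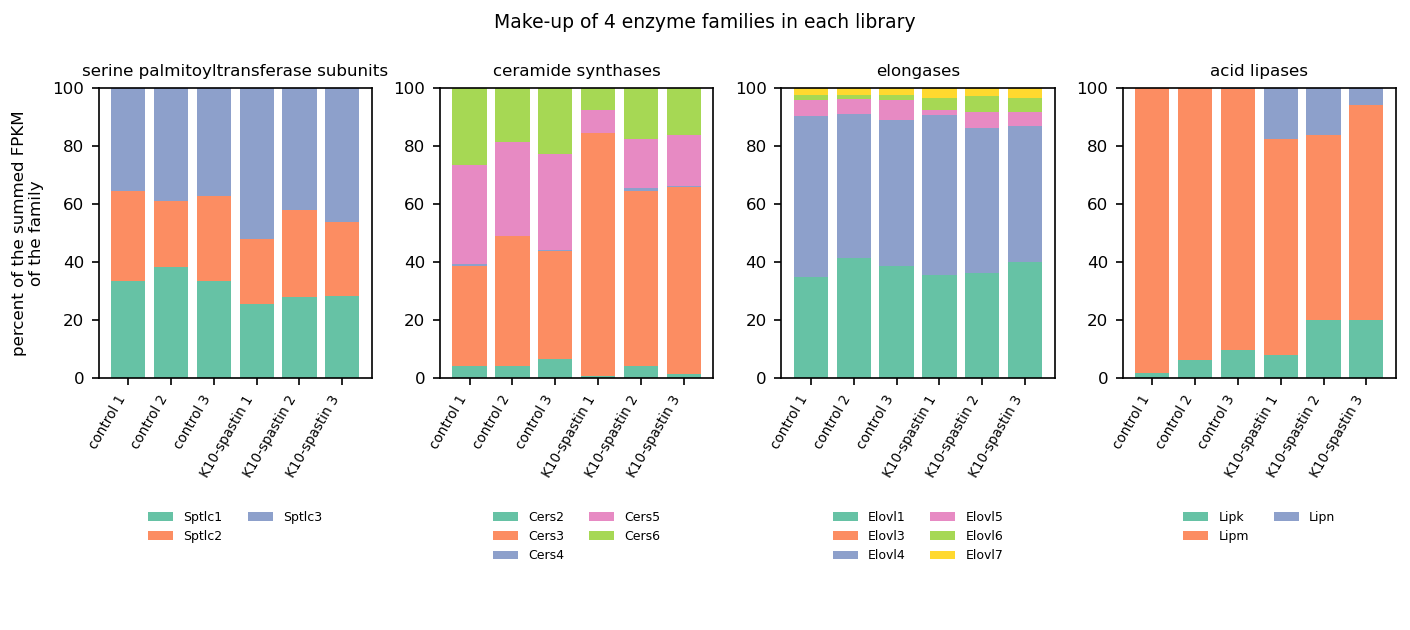
Share of each member in the summed FPKM of its family (vertical axis, percent) in each of the 6 libraries, for serine palmitoyltransferase subunits, ceramide synthases, elongases and acid lipases. Cers3 takes 34.5 to 44.9% of the ceramide synthases in controls and 60.6 to 83.7% in K10-spastin, and Lipn appears among the acid lipases in K10-spastin only at a visible share, 5.84 to 17.5%.

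None of the 3 enzymes that put a head group on ceramide was called. Ugcg, which makes glucosylceramide for the lamellar granules, was 32.4, 74.2 and 64.2 FPKM in controls and 313, 120 and 123 FPKM in K10-spastin. The groups were separate, with library 1 of K10-spastin far above the other two and control 1 lowest, and the change of 1.62 ± 0.44 had an adjusted p of 0.0571. With control 1 and K10-spastin 1 both left out it was 0.81 and passed the threshold (adjusted p = 0.0285). Sgms1, the sphingomyelin synthase of the Golgi, was 44.3, 52.9 and 44.4 FPKM against 49.5, 40.9 and 54.6 FPKM. These overlap, and the change of 0.03 ± 0.16 (adjusted p = 0.916) had a 95% interval of -0.33 to 0.39 and became -0.03 with quantile normalization. Sgms2, the plasma membrane form, lay between 1.34 and 1.92 FPKM in controls and between 2.09 and 2.84 FPKM in K10-spastin (0.44 ± 0.20, adjusted p = 0.174).

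Of the enzymes that break sphingomyelin or ceramide, Smpd3 changed most. This neutral sphingomyelinase rose from 0.682, 2.43 and 3.26 FPKM to 10.8, 14.0 and 49.6 FPKM (2.84 ± 0.59, adjusted p = 0.0284). All K10-spastin libraries were above the controls, with library 3 highest and control 1 lowest. Of the granular layer markers, Lor (loricrin), Flg2, Cdsn and Hrnr had the same extremes (for Lor 1205.4 FPKM, control 1, and 14561.6 FPKM, K10-spastin 3). Ivl, Tgm3, Casp14 and Asprv1 instead peaked in K10-spastin 1, and Ivl and Tgm3 were lowest of that group in library 3. The part of the granular layer in the Smpd3 values was not tested. The Smpd3 call was lost without control 1, 2 or 3 (adjusted p of 0.0816, 0.0817 and 0.0767) and without K10-spastin 2 (0.0504). Exons of Smpd3 overlap those of Prmt7 on the other strand over 4.7% of their length, a gene that stood at 41.3 to 53.3 FPKM in controls against 26.3 to 41.1 FPKM. Smpd1, the acid sphingomyelinase of lamellar granules, was 15.4, 32.6 and 23.5 FPKM against 86.6, 37.4 and 67.1 FPKM (1.36 ± 0.36, adjusted p = 0.0542). K10-spastin 2 was closest to the controls, and without it Smpd1 passed the threshold (1.70, adjusted p = 0.0358).

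Neither ceramidase was called, and their changes had opposite signs. Acer1, the alkaline ceramidase of differentiated keratinocytes, was 43, 41.1 and 33.0 FPKM against 39.3, 12.7 and 23.0 FPKM (-0.75 ± 0.36, adjusted p = 0.205). Library 1 of K10-spastin lay within the control range, and without it the change was -1.13 and was called (adjusted p = 0.0453). Asah1, the lysosomal acid ceramidase, was 12.8, 14.3 and 15.1 FPKM against 16.3, 19.2 and 29.8 FPKM, without overlap (0.56 ± 0.23, adjusted p = 0.15). The share of Acer1 in the summed FPKM of the pair was 68.6 to 77.1% in controls and 70.7, 39.8 and 43.6% in K10-spastin.

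The elongases include the largest values of the whole list and a call in a minor member. Elovl6, which extends palmitate to stearate, rose from 8.68, 10.4 and 9.41 FPKM to 42.8, 32.0 and 36.4 FPKM (1.85 ± 0.16, adjusted p = 0.00391). Both groups were tight and far apart, and the call held in all 16 alternatives compared (adjusted p of 0.000317 to 0.0259). A processed copy, Gm11295, matches 805 bases of Elovl6 at 97.4% identity, so reads could have been shared between them. Elovl4, the elongase of ultra-long acyl chains, was 265, 353 and 260 FPKM against 570, 291 and 351 FPKM (0.42 ± 0.26, adjusted p = 0.310). Elovl1, of very long saturated chains, was 165, 294 and 200 FPKM against 371, 210 and 303 FPKM (0.42 ± 0.27, adjusted p = 0.326). In both, control 2 lay within the K10-spastin range. Elovl7 was 36.6, 16.7 and 25.1 FPKM in K10-spastin and 10.6 and 11.8 FPKM in controls 1 and 3 (0.91 ± 0.30, adjusted p = 0.0869). Control 2 was the highest control and lay just below the lowest K10-spastin value, that of library 2, and without K10-spastin 2 the gene was called (1.18, adjusted p = 0.0497). Elovl5, which lengthens polyunsaturated chains, lay between 26.2 and 36.1 FPKM in controls and between 17.9 and 36.1 FPKM in K10-spastin (-0.22 ± 0.28, adjusted p = 0.630). Its change was 0.08 without K10-spastin library 1. Elovl3 was listed at 0 in all libraries. Elovl1 and Elovl4 made up most of the family in both groups, while Elovl6 was 1.47 to 1.83% of it in controls and 4.12 to 5.50% in K10-spastin.

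Fatty acid synthesis and desaturation rose in 2 of 5 genes, both stearoyl-CoA desaturases, which place a double bond in stearate and palmitate. Scd2, the main form here, was 88.0, 77.8 and 81.2 FPKM in controls and 177, 192 and 258 FPKM in K10-spastin (1.32 ± 0.16, adjusted p = 0.00783). Scd1 rose from 1.27, 0.930 and 1.61 FPKM to 6.83, 7.80 and 9.72 FPKM (2.0 ± 0.21, adjusted p = 0.00514). In neither did the groups come close, and both were called in every alternative in which they were tested. Transcripts of the 2 genes share 94.7% identity over 624 bases, and Scd1 shares 91.4% with Scd3 over 1053 bases, so fragments from Scd2 counted as Scd1 cannot be told apart from Scd1 transcripts. Scd1 was 1.18 to 1.95% of the sum of both in controls and 3.64 to 3.90% in K10-spastin.

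Fasn, the fatty acid synthase, was 116, 110 and 121 FPKM against 141, 229 and 193 FPKM (0.67 ± 0.18, adjusted p = 0.0593). The groups were separate and K10-spastin 1 was lowest of its group. Fasn was called without that library (0.86, adjusted p = 0.0138) and with median-of-ratios scaling (0.77, adjusted p = 0.0164). Acaca, which makes malonyl-CoA for Fasn and the elongases, was 40.7, 46.1 and 47.4 FPKM against 41.6, 65.1 and 59.2 FPKM. It overlapped (0.28 ± 0.19, adjusted p = 0.347), and it shares 99.2% identity over 6118 bases with the copy Gm5182. Slc27a4, the fatty acid transport protein and acyl-CoA synthetase of the ichthyosis prematurity syndrome, was 61.1, 66.0 and 58.9 FPKM against 84.2, 67.9 and 103 FPKM (0.43 ± 0.17, adjusted p = 0.132). Its K10-spastin 2 value lay just above the controls.

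**Figure D3:**
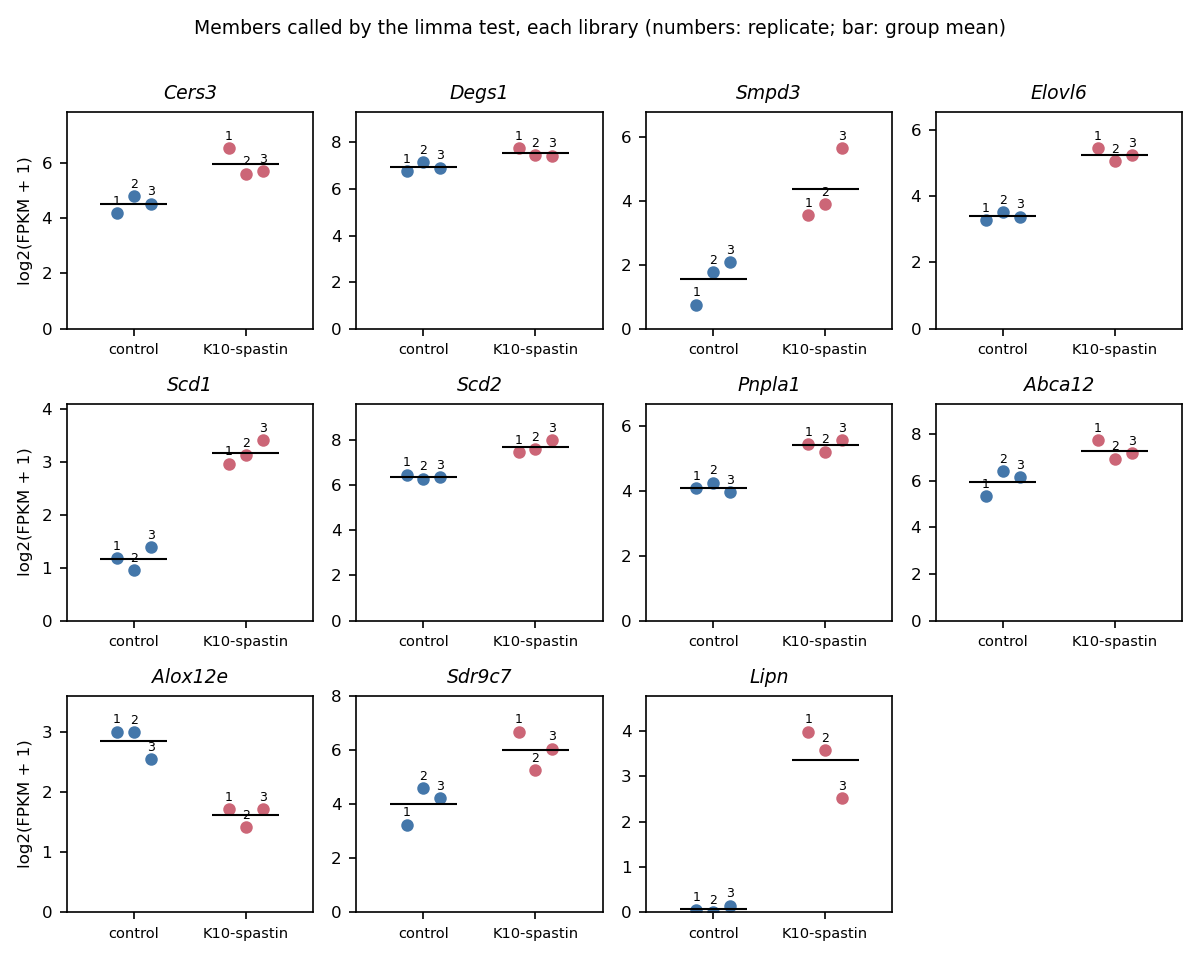
Levels of the 11 called genes in each library, as log2(FPKM + 1). Vertical axes start at 0, numbers mark the replicate, and bars are group means of the log values (n = 3 per group). Elovl6, Scd1, Scd2, Pnpla1 and Lipn show groups well apart, while Cers3, Abca12 and Sdr9c7 have a high library 1 and Smpd3 a high library 3 in K10-spastin.

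Acylceramide synthesis and its transport contributed 2 called genes of 6. Pnpla1, the transacylase that esterifies ω-hydroxyceramide with linoleate, rose from 16.0, 18.1 and 14.6 FPKM to 42.1, 36.0 and 46.6 FPKM (1.30 ± 0.16, adjusted p = 0.00736). The lowest K10-spastin library was well above the highest control, and the call held in all 16 alternatives compared (adjusted p of 0.00119 to 0.0438). The antisense gene Pnpla1os, which overlaps 13.3% of its exons, stood at no more than 0.175 FPKM. Abca12, the lipid transporter of the lamellar granule membrane whose loss causes harlequin ichthyosis, rose from 39.5, 83.4 and 69.5 FPKM to 214, 122 and 144 FPKM (1.33 ± 0.31, adjusted p = 0.0394). The groups were separate, with control 1 lowest. Its call was lost without any single library, at adjusted p of 0.0816, 0.0682 and 0.109 without controls 1, 2 and 3 and 0.0702, 0.0547 and 0.0572 without K10-spastin libraries 1, 2 and 3. With median-of-ratios scaling the adjusted p was 0.0557.

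The other 4 genes of this step all had positive changes that were not called. Cyp4f39, the ω-hydroxylase of ultra-long fatty acids, was 115, 140 and 103 FPKM against 326, 169 and 158 FPKM (0.79 ± 0.28, adjusted p = 0.106). Nipal4 (ichthyin), a membrane protein mutated in congenital ichthyosis, was 24.7, 27.6 and 21.8 FPKM against 63.5, 31.7 and 42.9 FPKM (0.82 ± 0.25, adjusted p = 0.0741). Both were separate between groups and highest in K10-spastin 1, and Nipal4 was called without K10-spastin 2 (1.05, adjusted p = 0.0448). Abhd5, the co-activator of triglyceride lipases that also assists Pnpla1, lay between 52.9 and 67.9 FPKM in controls and between 73.7 and 114 FPKM in K10-spastin (0.51 ± 0.19, adjusted p = 0.122). Exons of Abhd5 overlap A730085K08Rik on the other strand over 16.0% of their length, and those of Acer1 overlap AC073683.1 over 14.1%. Dgat2, which makes triglycerides, was 137, 208 and 155 FPKM against 257, 156 and 218 FPKM and overlapped (0.32 ± 0.23, adjusted p = 0.371).

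In the lipoxygenase pathway, which oxidises the linoleate of acylceramides so that they can be bound to protein, 1 gene rose and 1 fell. Sdr9c7, the dehydrogenase that acts after the lipoxygenases, rose from 8.47, 23.2 and 17.9 FPKM to 102, 37.3 and 65.7 FPKM (1.98 ± 0.44, adjusted p = 0.0352). The groups were separate but each spread widely. The call was lost without control 1, 2 or 3 (adjusted p of 0.0841, 0.0682 and 0.104) and without K10-spastin 1 or 3 (0.0632 and 0.0594). Alox12b, the 12R-lipoxygenase, was 30.8, 70.9 and 53.8 FPKM against 163, 51.8 and 134 FPKM (1.08 ± 0.47, adjusted p = 0.164). Aloxe3, its partner hydroperoxide isomerase, was 25.7, 61.3 and 42.1 FPKM against 81.2, 32.4 and 90 FPKM (0.60 ± 0.44, adjusted p = 0.392). In both genes K10-spastin 2 lay within the control range, control 1 was lowest, and Alox12b was called without K10-spastin 2 (1.57, adjusted p = 0.0487). Alox12e, a further epidermal lipoxygenase of the mouse, fell from 7.05, 6.98 and 4.87 FPKM to 2.30, 1.68 and 2.30 FPKM (-1.23 ± 0.21, adjusted p = 0.0173). All K10-spastin values were below the controls. Its call was lost without control 1, 2 or 3 (adjusted p of 0.0571, 0.0808 and 0.0574).

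The acid lipases are a cluster of genes expressed in late keratinocyte differentiation, and Lipn among them was nearly absent from controls. It was listed at 0.0408, 0 and 0.111 FPKM in controls, near the 0.0709 to 0.0994 FPKM that 3 fragments give for this gene, and rose to 14.8, 10.9 and 4.75 FPKM in K10-spastin (adjusted p = 0.00546). The log2 change of 3.29 ± 0.36 depends on the pseudocount and was 6.01 with a pseudocount of 0.1 FPKM, while the call held in all 16 alternatives. The gene passed the filter only through K10-spastin, so it had to differ. Lipk was 0.596, 3.99 and 4.50 FPKM against 6.77, 13.5 and 16.3 FPKM (1.82 ± 0.52, adjusted p = 0.0631). The groups were separate, with library 1 lowest in each, and Lipk was called with quantile normalization (1.94, adjusted p = 0.0441). Lipm, the most abundant of the 3, was 33.9, 60.2 and 41.3 FPKM against 63.1, 42.6 and 60.3 FPKM and overlapped (0.31 ± 0.25, adjusted p = 0.428). Its exons share 34.9% of their length with Ankrd22 on the other strand, and the sources used here do not say whether counting used strand.

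**Figure D4:**
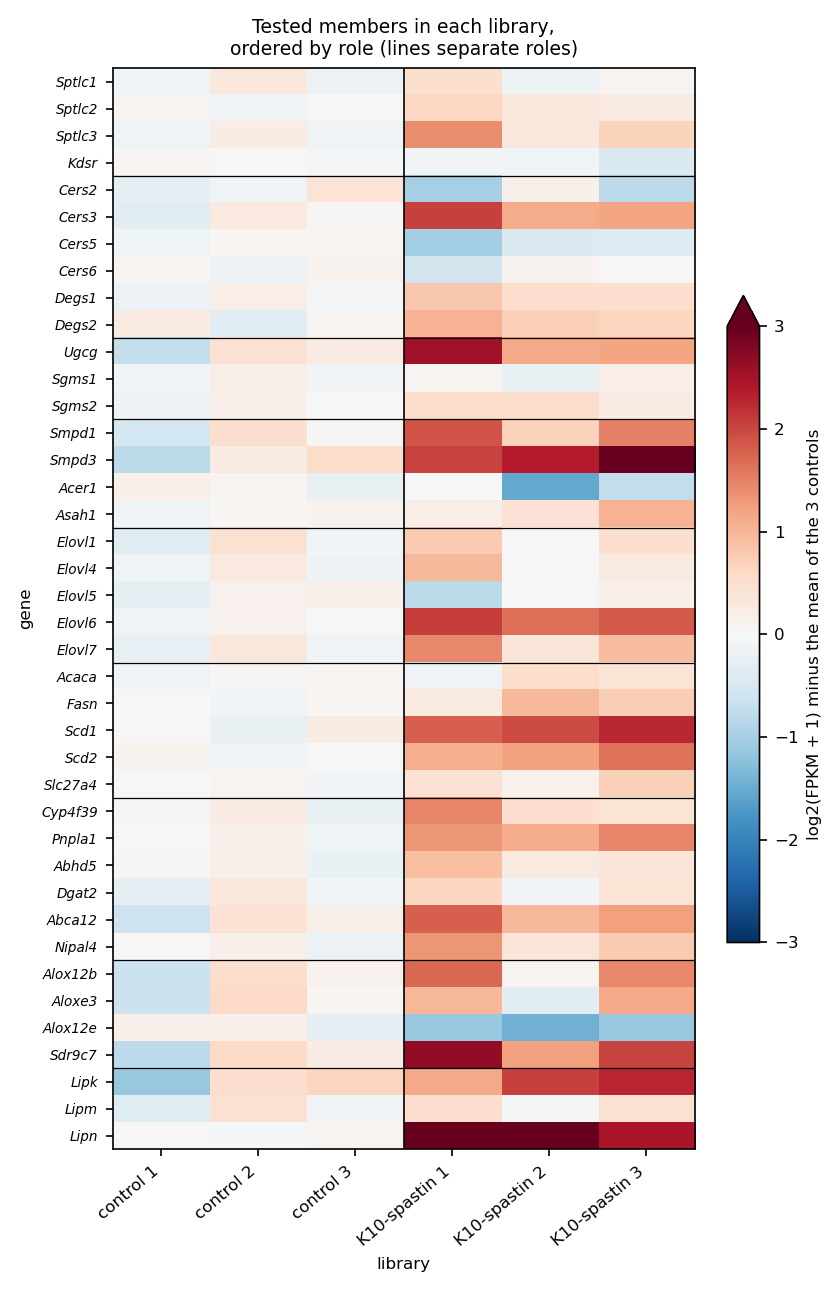
Each tested gene (rows, grouped by role) in each library (columns), coloured by its log2(FPKM + 1) relative to the control mean. K10-spastin 1 is the highest of the K10-spastin columns for 24 of the 40 genes, while Acaca, Fasn, Scd1 and Scd2 are lower there than in K10-spastin 2 and 3.

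The order of libraries within a group was shared by many of these genes. K10-spastin 1, which also had the highest Spast level, was the highest library of its group for 24 of the 40 tested members, against 19.9% of all tested genes. It was the lowest for 11 of the 40, against 63.8% of all tested genes. K10-spastin 2 was the lowest for 22 of the 40, against 16.2% of all tested genes, and the highest for 5, against 48.6%. Among the controls, library 1 was lowest for 23 (32.1% of all tested genes) and library 2 highest for 23 (27.7% of all tested genes). The order differed between genes, also within a role. Sptlc3, Cers3, Ugcg, Elovl4, Cyp4f39 and Abca12 were highest in K10-spastin 1, whereas Acaca and Fasn were highest in K10-spastin 2 and Scd1 and Scd2 in K10-spastin 3. Yet Cers2, Cers5, Cers6 and Elovl5 were lowest in K10-spastin 1, and Pnpla1 was highest in K10-spastin 3. The part of the Spast level in this order was not tested.

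**Figure D5:**
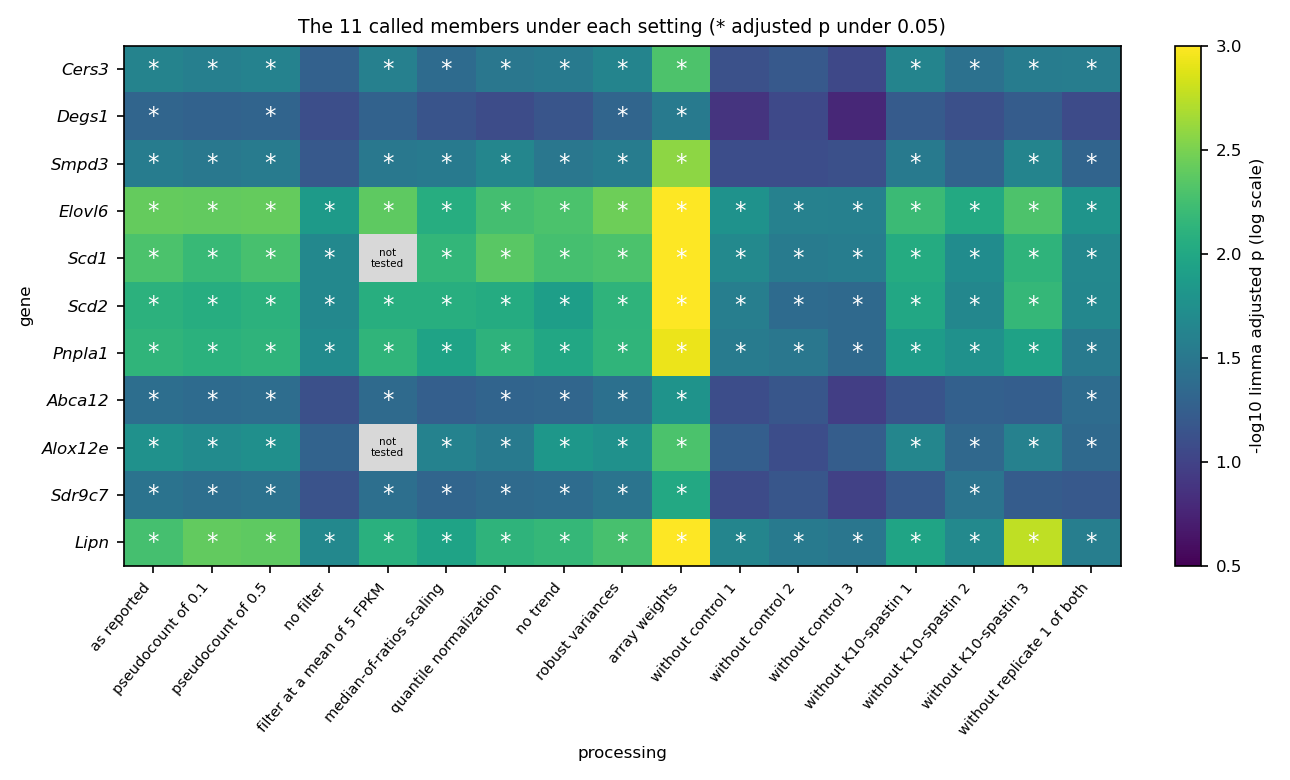
Adjusted p of the 11 called genes (rows) under each alternative way of processing or leaving out libraries (columns), with asterisks for adjusted p under 0.05. The replicate block is not shown. Elovl6, Scd2, Pnpla1 and Lipn keep an asterisk in all 16 columns and Scd1 in the 15 where it was tested, while Degs1 keeps it in 3.

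Genes around these pathways were taken from 5 further lists of 110 genes in all, 80 of them tested. Of the 80, 12 rose (15.0%) and 7 fell (8.75%), against 5.14% and 5.9% of all tested genes. Their median log2 change was -0.08, against -0.09 over all tested genes. Of 24 other sphingolipid genes tested, 3 rose and 2 fell. Asah2, neutral ceramidase, rose from 5.26, 9.10 and 7.12 FPKM to 21.8, 17.9 and 20.6 FPKM (1.39 ± 0.21, adjusted p = 0.0129). Sgpp2, a sphingosine-1-phosphate phosphatase, rose from 0.156 to 0.272 FPKM to 2.35 to 4.57 FPKM (adjusted p = 0.00894), and Smpdl3a, a phosphodiesterase related to acid sphingomyelinase, rose by 1.55 ± 0.36 (adjusted p = 0.0390). Sgpp2 passed the filter only through K10-spastin, so it had to differ. Sphk1, which phosphorylates sphingosine, fell from 52.6, 38.1 and 41.7 FPKM to 21.4, 14.0 and 26.2 FPKM (-1.10 ± 0.24, adjusted p = 0.0341). Psap, the precursor of the saposins that assist lysosomal hydrolases, fell from 558, 491 and 461 FPKM to 258, 321 and 318 FPKM (-0.75 ± 0.14, adjusted p = 0.0206). Gltp, a glycolipid transfer protein and the most abundant of the list, was 1376.5, 1456.5 and 1234.8 FPKM against 2050.7, 1818.9 and 1734.7 FPKM (0.46 ± 0.13, adjusted p = 0.0621).

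Of 27 other fatty acid and triglyceride genes tested, 4 rose and 3 fell. Fabp5, the epidermal fatty acid binding protein, rose from 895, 837 and 886 FPKM to 2527.7, 1635.8 and 1409.2 FPKM (1.04 ± 0.22, adjusted p = 0.0284). Acot7, an acyl-CoA thioesterase, rose from 9.18, 7.76 and 8.05 FPKM to 26.1, 23.4 and 30.7 FPKM (1.57 ± 0.16, adjusted p = 0.00499). The lipase gene Lipe and the binding protein gene Fabp4 also rose, Fabp4 from 0.686 to 1.42 FPKM to 126, 18.7 and 10.5 FPKM. Acsl4, which activates arachidonate, fell from 14.2, 25.0 and 17.4 FPKM to 2.86, 2.03 and 6.23 FPKM (-2.14 ± 0.36, adjusted p = 0.0163). Slc27a1 and Mgll fell as well, by 1.06 and 1.12 on the log2 scale (adjusted p of 0.0177 and 0.0491), but Mgll passed the filter only through the controls. Acly, the source of cytosolic acetyl-CoA, was 335 to 395 FPKM against 247 to 465 FPKM (-0.02 ± 0.23, adjusted p = 0.97).

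Among 8 other lipoxygenase and epoxide genes tested, Ephx3, an epoxide hydrolase of the lipoxygenase pathway, rose from 22.0, 37.1 and 29.9 FPKM to 128, 57.4 and 67.6 FPKM (1.42 ± 0.32, adjusted p = 0.0358). Alox12, the platelet-type 12-lipoxygenase that is also expressed in epidermis, fell from 58.3, 62.9 and 50.3 FPKM to 26.0, 20.9 and 32.0 FPKM (-1.10 ± 0.18, adjusted p = 0.0163), and Ephx2 fell by 1.32 on the log2 scale (adjusted p = 0.0136). Ptgs1 was not called (-0.09 ± 0.20, adjusted p = 0.799). Of 11 lipid transcription regulators tested, Pparg rose from 0.0981, 0.172 and 0.10 FPKM to 6.14, 3.52 and 2.22 FPKM (adjusted p = 0.0120) and Insig2 from 25.5, 33.4 and 30.7 FPKM to 80.8, 52.0 and 55.5 FPKM (adjusted p = 0.0242). Pparg passed the filter only through K10-spastin. The nuclear receptor Rxra was 260 to 300 FPKM against 135 to 218 FPKM (-0.61 ± 0.19, adjusted p = 0.0767), and Scap, which escorts sterol regulatory proteins, did not move beyond its error (0.00 ± 0.11, adjusted p = 0.988). Of 10 genes of lamellar granule trafficking, 2 rose. Tgm1, the transglutaminase of the cornified envelope, rose from 53.6, 80.5 and 71.7 FPKM to 403, 255 and 183 FPKM (1.96 ± 0.29, adjusted p = 0.0126), and the transporter gene Abcg1 by 1.48 ± 0.36 (adjusted p = 0.0426). Rab11a, the most abundant, was 236 to 301 FPKM against 280 to 438 FPKM (0.39 ± 0.19, adjusted p = 0.207).

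Fabp4 and Pparg are also used as markers of sebaceous cells and fat cells, so the whole marker lists are given here. Of 8 sebocyte markers 3 were tested, and Fabp4 and Cidea rose, Cidea from at most 0.467 FPKM in controls to 31.4, 9.09 and 5.54 FPKM, a gene that passed the filter only through K10-spastin. The third, Far2, was 0.297 to 0.981 FPKM in controls and 0.369, 0.58 and 12.1 FPKM in K10-spastin, and was not called (0.94 ± 0.81, adjusted p = 0.464). Far2 also passed the filter only through K10-spastin. Awat1 was listed at 0 in all 6 libraries, Mc5r was at most 0.268 FPKM, Awat2 at most 0.608 FPKM, Soat1 at most 0.628 FPKM and Plin5 at most 0.274 FPKM. The list summed to 2.03 to 3.50 FPKM in controls and 29 to 159 FPKM in K10-spastin. Of 6 adipocyte markers only Pparg was tested, with Adipoq and Lep listed at 0 in all libraries. Plin1, Cidec and Cfd were at most 0.0707, 0.105 and 0.0964 FPKM. The adipocyte list summed to 0.205 to 0.303 FPKM in controls and 2.22 to 6.14 FPKM in K10-spastin. In K10-spastin that sum was Pparg alone, with the other adipocyte markers listed at 0.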

How the data were processed

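Per the labels' protocols, epidermal cells of both groups were sorted for H2B-GFP and their RNA sequenced by an outside provider. The authors deposited a single table of FPKM values per gene for 6 libraries. Per the submitters' processing notes CASAVA and TopHat2 were used, while no source used here names versions, genome build, gene counter or use of strand. Of 35275 identifiers, 34490 matched a gene symbol and 785 did not.

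Only genes averaging 1 FPKM or more entered the two-sided limma 3.58.1 test (R 4.3.3; lmFit, then eBayes with trend) of log2(FPKM + 1). The p-values of all 11071 such genes were adjusted by Benjamini-Hochberg, at a threshold of 0.05. The added 1 FPKM shrinks changes of low genes. An exact permutation test of 3 libraries against 3 cannot go below p = 0.1, so none was used. The fit was tested on simulated data. Depth was estimated from FPKM values worth at most 20 fragments among 14953 single-transcript genes. Of these 2032 to 2642 low values per library, 90.8 to 91.8% came out as whole fragments within 0.05. None of 30 widely expressed genes was listed at 0. Overlapping exons and transcripts of 90% identity or more over 200 bases (BLAST 2.17.0) came from GENCODE M21, and promoters from RefSeq.

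Values are given for called members, the 2 most abundant of each role, members whose call an alternative changed, and, from the pathway lists, called genes and the 2 most abundant. The members, lists and tests were chosen with earlier results of these data known. Alternatives covered the pseudocount, filter, scaling, variance model, library weights, replicate block and leaving out libraries.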

Additional observations from a re-analysis of the deposited data

How the results depend on the processing

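All values rest on 3 libraries per group and on FPKM, without counts or stated embryo numbers. The median change of the members, 0.60, moved by less than the spread between libraries in all 17 alternatives (0.42 to 0.71). Another variance model or the replicate block leaves the log2 changes unaltered, so those alternatives could not move it. Elovl6, Scd1, Scd2, Pnpla1 and Lipn were called in every alternative in which they were tested. Of these, Lipn passed the filter on low values only through K10-spastin, so it had to differ. Median-of-ratios scaling moved the median change of all genes from -0.09 to 0.01. Members called higher, 10 as reported, were 5 with no filter and 22 with array weights, and 5 to 11 with 1 library left out. Members called lower, 1 as reported, were 0 with no filter, 0 with a filter of 5 FPKM, 3 with array weights and 0 to 2 with 1 library left out. Alox12e, with a mean of 4.2 FPKM, was not tested under the filter of 5 FPKM. Over all genes, 569 called higher became 319 with no filter and 1535 with array weights, and 653 called lower became 348, 1771 and, with the 5 FPKM filter, 414. Leaving out 1 library gave 114 to 687 higher and 31 to 707 lower. The cause of these shifts was not tested, beyond fewer libraries, more genes or fewer genes entering the fit. A replicate block on library number left 274 genes called higher, 218 lower, 7 members higher and 0 lower. Those 7 were Smpd3, Elovl6, Scd1, Scd2, Pnpla1, Lipk and Lipn. Cers3, Degs1, Abca12, Sdr9c7 and Alox12e lost their calls. This block is not among the 16 alternatives compared for single genes. Deviations of same-numbered libraries had correlations of -0.13, -0.38 and -0.05. With 3 libraries per group these cannot show whether the numbers mark a pairing, which the labels do not state. Changes that reversed sign were all uncalled. With array weights Sptlc1 was -0.032 and Cers6 0.0442, without both libraries numbered 1 they were -0.104 and 0.0911 and Sgms1 was -0.0339, and with quantile normalization Sgms1 was -0.0313. With 1 library left out, Sptlc1 was -0.0374 to 0.288, Cers6 -0.262 to 0.0648, Sgms1 -0.0611 to 0.143 and Elovl5 -0.408 to 0.0785.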
